A study of Homo sapiens with 6 samples.

Results

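Cholesterol synthesis and SREBP genes were examined as a group of 32 genes that share a place in sterol and fatty acid synthesis. The list was drawn up by pathway, with earlier results of these data known. Of these, 29 had a probe set annotated to that gene alone, among 19775 such genes on the array, and the brightest such probe set, by its mean over the 6 arrays, stood for each gene. FDFT1, CYP51A1 and FADS1 were not analysed here: FDFT1 was matched to no probe set. The 2 probe sets of CYP51A1 and the 3 of FADS1 were each annotated to more than 1 gene. The array annotation uses the older symbol SC4MOL for the gene now called MSMO1. The arrays measured IKPRAB-36 cells, Ishikawa endometrial cancer cells into which progesterone receptors A and B had been stably transfected, so that the receptors come from a transgene in 1 selected line. Both groups shared the same medium, with charcoal stripped serum, hygromycin and neomycin. Control cells (3 arrays) received no hormone, and MPA cells (3 arrays) were cultured with 1 nM medroxyprogesterone acetate, a synthetic progestin, for 48 h. The labels do not say whether the 3 arrays of a group came from separate cultures, so the p-values reflect array-to-array spread alone, and that spread may be technical.

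Animal cells build cholesterol from acetyl-CoA through mevalonate, isoprenoids, squalene and lanosterol. The transcription factors SREBP-1 and SREBP-2, the products of SREBF1 and SREBF2, are held in the endoplasmic reticulum by INSIG proteins when sterols are plentiful. When sterols fall, SCAP escorts these factors to the Golgi, where proteases release the part that enters the nucleus and switches on the enzyme genes. In the endometrium, progesterone drives the secretory change of the epithelium, and cholesterol is the precursor of all steroid hormones.

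No member of the pathway passed the test after 48 h of MPA. The signals of these 29 genes were above the array medians, and their group means differed by between -0.14 and 0.44 on the log2 scale, less than the spread between control arrays for 25 of the 29. The highest estimates belonged to FADS2, SC4MOL, IDI1, ELOVL6 and TM7SF2, and the lowest to HSD17B7, the sterol ketoreductase. In limma with Benjamini-Hochberg adjustment over 54613 probe sets, none of the 29 was called higher, where 1.21% of all probe sets were, and none lower, where 0.813% were. Calls were made where the adjusted p was under 0.05 and the higher group mean exceeded the lower by at least 25% on the linear scale. With so low a share over all probe sets, a count of 0 among 29 genes does not set the members apart. At an unadjusted p under 0.05 the count was 3 of 29 (10.3%; SC4MOL, FADS2 and INSIG1), against 11.8% of all genes and 10.3% of all probe sets, so the members did not exceed the background here either. SAM is the test named in the study's methods. A version of it written from its description, with the study's cutoff (delta) of 0.53, called 1 member higher (SC4MOL) and 0 lower. Of 5 progestin-responsive genes measured as a check of the treatment, 3 were called higher in the same fit. FKBP5, a co-chaperone of steroid receptors and a known progestin target, rose from 9.81 ± 0.04 to 13.36 ± 0.06 (SD, n = 3; limma adjusted p = 2.33e-06). SGK1 and TSC22D3 were the other 2, whereas the dim ZBTB16 differed by -0.11 and HSD17B2 by -0.575, neither called.

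**Figure D1:**
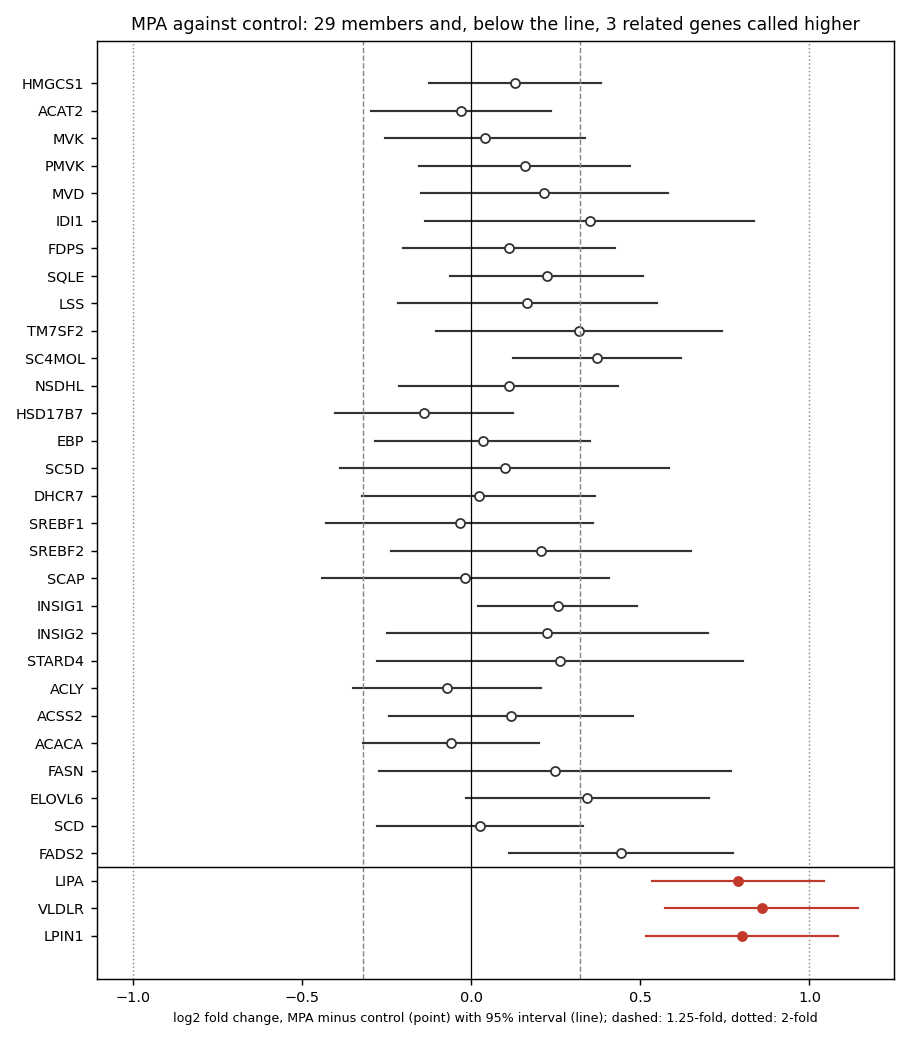
Difference of the MPA from the control mean (log2, 3 arrays each) for the 29 members, each with its 95% interval from limma, and below the line the 3 genes of related lists that were called higher (filled red). All 29 member intervals lie inside the dotted lines that mark a 2-fold change, and 3 of them (SC4MOL, INSIG1 and FADS2) lie above 0.

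The intervals show what changes could have been missed in the brightest probe set of each gene. They reflect array-to-array spread, and if the arrays of a group shared a culture they leave out variation between cultures. Taken 1 gene at a time and without adjustment, all 29 of the 95% intervals lay within a 2-fold change in either direction, and 20 lay within 1.5-fold. The highest upper bound was that of IDI1 (1.78-fold), and the lowest lower bound that of SCAP (0.736 of control). The intervals of 25 members reached an increase of 25%, and those of 6 reached a decrease of 20%, the same size on the log scale. Changes of that order were therefore not resolved by 3 arrays against 3, for which an exact permutation test of a single gene cannot give a p under 0.1. The arrays measure the RNA of whole cultures, so a change in all cells and a larger one in some cannot be told apart, nor can fewer cells of a kind be told from less RNA per cell.

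The median log2 fold change was 0.13 over the members and 0.021 over all 19775 genes, with 23 members above 0 and 6 below. Over all genes, 10942 were above 0 and 8833 below. The members' median was 0.028 without array MPA 3, 0.073 without control 2 and 0.20 without MPA 1. The poly-A controls averaged 6.60 (log2) on MPA 3, whereas they lay between 8.09 and 8.90 elsewhere, and an 18S ribosomal RNA probe set read 6.99 there and 7.64 to 8.30 elsewhere. The part of these controls in the members' median was not tested. The medians of the arrays lay between 5.16 and 5.28, and all 29 members were above them on every array (lowest value 6.84, for MVD). Of 8 epithelial markers none was called, and 4 were higher and 4 lower in the mean with MPA. KRT8 and KRT18, keratins of simple epithelium, had signals of at least 13.00 on every array. KRT8 had all MPA arrays above all controls (difference 0.22), while KRT7 (0.33), KRT19 (0.27) and KRT18 (0.024) overlapped. The adhesion genes EPCAM (means 11.21 in control cells and 10.67 with MPA, limma adjusted p = 0.0586) and CDH1 (8.30 and 7.54, adjusted p = 0.128) had all MPA arrays below all controls, and CLDN3 differed by -0.41 with overlap. CLDN4 was dim, at means of 5.55 and 5.39. Over all probe sets, 7.43% had all MPA arrays below all controls and 7.94% had them above. Of 4 leukocyte, 4 endothelial and 4 adipocyte or hepatocyte markers, 3, 3 and 2 had group means under the array medians, among them PTPRC, CDH5, ADIPOQ and ALB. Of 7 stromal markers 3 were under the medians: COL1A2 (difference -0.002), PDGFRB (0.056) and LUM (0.10). The collagen genes COL1A1 (8.97 and 8.17, limma adjusted p = 0.168) and COL3A1 (10.49 and 9.96, adjusted p = 0.0918) had all MPA arrays below all controls. DCN (-0.028) and THY1 (-0.008) overlapped between groups. Of 4 Mullerian factors measured, SOX17 was under the medians, and PAX8 had means of 10.77 and 10.33 (limma adjusted p = 0.0762). EMX2 (10.13 and 10.27, with overlap) and HOXB6 (8.48 and 8.67, all MPA arrays above all controls) were higher in the mean with MPA. The part of these differences in the results was not tested.

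**Figure D2:**
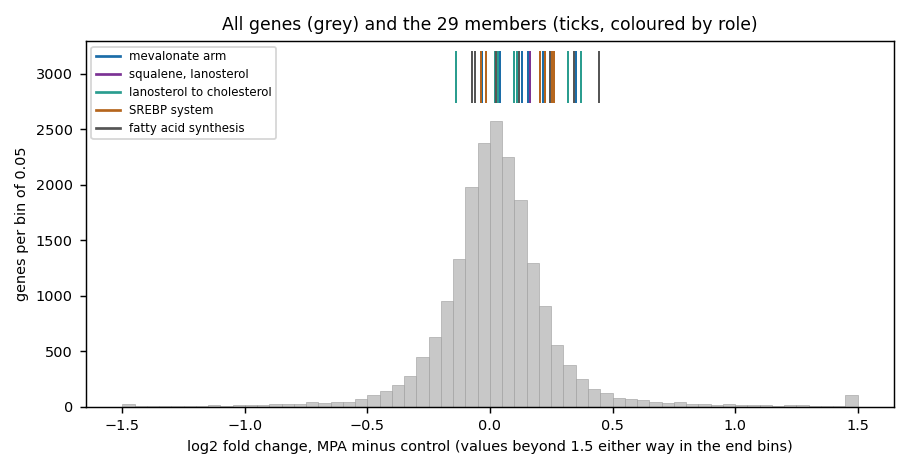
Number of genes in each bin of log2 fold change (MPA minus control; grey bars, 19775 genes, brightest probe set each, values beyond the axis in the end bins) with the 29 members as ticks coloured by role. The members lie between -0.14 and 0.44, and all genes between -2.63 and 5.69. The bin of the highest member, FADS2 (from 0.40), holds 161 genes, against 2575 in the bin from 0.

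As examples of the regulatory sequence, for the 3 genes whose groups did not overlap and for SREBF2, the bases before their transcription starts are printed from RefSeq (GRCh38.p14). RefSeq promoter windows, 250 bases before to 50 after a start, were matched for 28 of the 32 genes (39 windows). SQLE, FDFT1, FASN and ACAT2 had none. Each line gives the 250 bases before the start, 5′ to 3′ on the gene's strand, and capitals mark the searched letters. These were CACCCCAC (the core of the sterol regulatory element), CCAAT (the NF-Y box, a usual neighbour of SREBP sites), CACGTG (the E-box) and ACANNNTGT (the palindromic core of the steroid receptor element), each on both strands, with CCAAT read as ATTGG on the other strand. All 4 windows lie on the plus strand: SC4MOL at chr4:165327419-165327668, INSIG1 at chr7:155297628-155297877, FADS2 at chr11:61815953-61816202 (the first of its 2 windows) and SREBF2 at chr22:41832855-41833104.
SC4MOL: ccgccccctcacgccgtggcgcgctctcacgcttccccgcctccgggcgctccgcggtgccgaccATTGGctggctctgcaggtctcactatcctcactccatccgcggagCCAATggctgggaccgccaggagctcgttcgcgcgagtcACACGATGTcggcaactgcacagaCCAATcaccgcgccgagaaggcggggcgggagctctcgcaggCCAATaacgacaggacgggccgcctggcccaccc
INSIG1: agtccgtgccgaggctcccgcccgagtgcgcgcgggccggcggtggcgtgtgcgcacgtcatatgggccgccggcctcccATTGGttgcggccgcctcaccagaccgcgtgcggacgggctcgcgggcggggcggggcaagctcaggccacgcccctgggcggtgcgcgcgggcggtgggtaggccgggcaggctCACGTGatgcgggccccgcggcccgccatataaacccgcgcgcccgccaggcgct
FADS2: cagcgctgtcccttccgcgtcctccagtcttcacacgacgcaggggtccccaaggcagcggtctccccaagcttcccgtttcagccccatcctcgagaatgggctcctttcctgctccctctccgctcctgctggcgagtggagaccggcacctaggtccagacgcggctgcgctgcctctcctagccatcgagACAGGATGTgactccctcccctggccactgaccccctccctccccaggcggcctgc
SREBF2: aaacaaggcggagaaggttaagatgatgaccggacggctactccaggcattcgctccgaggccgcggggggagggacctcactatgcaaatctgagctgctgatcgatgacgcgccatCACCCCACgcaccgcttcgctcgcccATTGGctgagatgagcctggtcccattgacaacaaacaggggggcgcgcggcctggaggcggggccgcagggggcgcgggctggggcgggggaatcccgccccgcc

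The CCAAT letters were in the window of 21 of the 28 genes (75%), and in 39.7% of the 27305 genes of the whole promoter table. SC4MOL held 4 copies, which began 185, 139, 76 and 34 bases before its start, and MVK and NSDHL held 5 each. SREBF2 was the only 1 of the 28 with CACCCCAC (3.57%; all genes 3.39%). The letters CACGTG were in LSS, SC5D, SCAP and INSIG1 (14.3%; all genes 8.77%), and ACANNNTGT in CYP51A1, SC4MOL, DHCR7 and FADS2 (14.3%; all genes 6.54%). None of the 4 sets of letters overlapped another in the printed windows. A match is a description of letters and not a bound site, and sterol regulatory elements with other spellings, or outside these windows, were not searched.

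In the mevalonate arm, from acetyl-CoA to farnesyl diphosphate, all 7 members had a probe set and their log2 fold changes ran from -0.031 to 0.35. HMGCS1, which makes HMG-CoA, had log2 signals of 7.97, 8.25 and 8.13 on control arrays 1 to 3 and 8.19, 8.29 and 8.26 on MPA arrays 1 to 3. The control array 2 value lay among the MPA values, and the difference of 0.13 (95% interval -0.13 to 0.38) was not called (limma adjusted p = 0.828). IDI1, the isomerase of the activated isoprene unit, was at 9.81, 10.66 and 10.15 in controls and 10.56, 10.77 and 10.34 with MPA. Its 1.27-fold estimate had an interval from -0.14 to 0.83 on the log2 scale, and the controls alone spanned 0.85. The probe set is of a type whose probes can bind related transcripts, and the other 3 probe sets of IDI1 gave 0.31, -0.088 and -0.25. The kinases MVK (0.041) and PMVK (0.16), the decarboxylase MVD (0.22), the prenyl synthase FDPS (0.11) and the thiolase ACAT2 (-0.031) overlapped between groups in every case.

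Of the squalene and lanosterol arm, SQLE and LSS were measured, and neither was called. SQLE, the squalene epoxidase and a flux-controlling step, was at 10.43, 10.52 and 10.65 in control cells and 10.71, 10.60 and 10.95 with MPA. Control 3 lay above MPA 2, so the groups overlapped, and the difference was 0.22 (SE 0.13, limma adjusted p = 0.652). LSS, which closes the ring system of lanosterol, differed by 0.17, with each group spanning 0.44.

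In the steps from lanosterol to cholesterol, 7 of 8 members were measured and SC4MOL had the estimate with the smallest p of all members. SC4MOL encodes the methylsterol monooxygenase, which oxidises methyl groups of the sterol ring. Its signals were 10.69, 10.79 and 10.76 on the control arrays and 11.24, 10.98 and 11.15 on the MPA arrays. All MPA arrays were above all controls, a pattern found for 7.94% of all probe sets and for 3 of the 29 members (10.3%). The estimate was 1.29-fold (log2 0.37, 95% interval 0.12 to 0.62, limma adjusted p = 0.202). SAM called this gene, and limma with the other settings did not (adjusted p of 0.0926 to 0.570).
TM7SF2, a sterol reductase, differed by 0.32 between group means of 9.63 and 9.95, with 2 MPA arrays above all controls and MPA 2 below control 1 and control 3. SC5D, a sterol desaturase, ranged from 9.12 to 9.90 over the controls alone, against a difference of 0.098. The dehydrogenase NSDHL (0.11), the isomerase EBP (0.033) and DHCR7, which reduces the direct precursor to cholesterol (0.022), also overlapped. HSD17B7 averaged 8.92 ± 0.16 on the control arrays and 8.78 ± 0.06 on the MPA arrays (SD, n = 3; limma adjusted p = 0.812), and its probe set is of the type that can bind related transcripts.

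**Figure D3:**
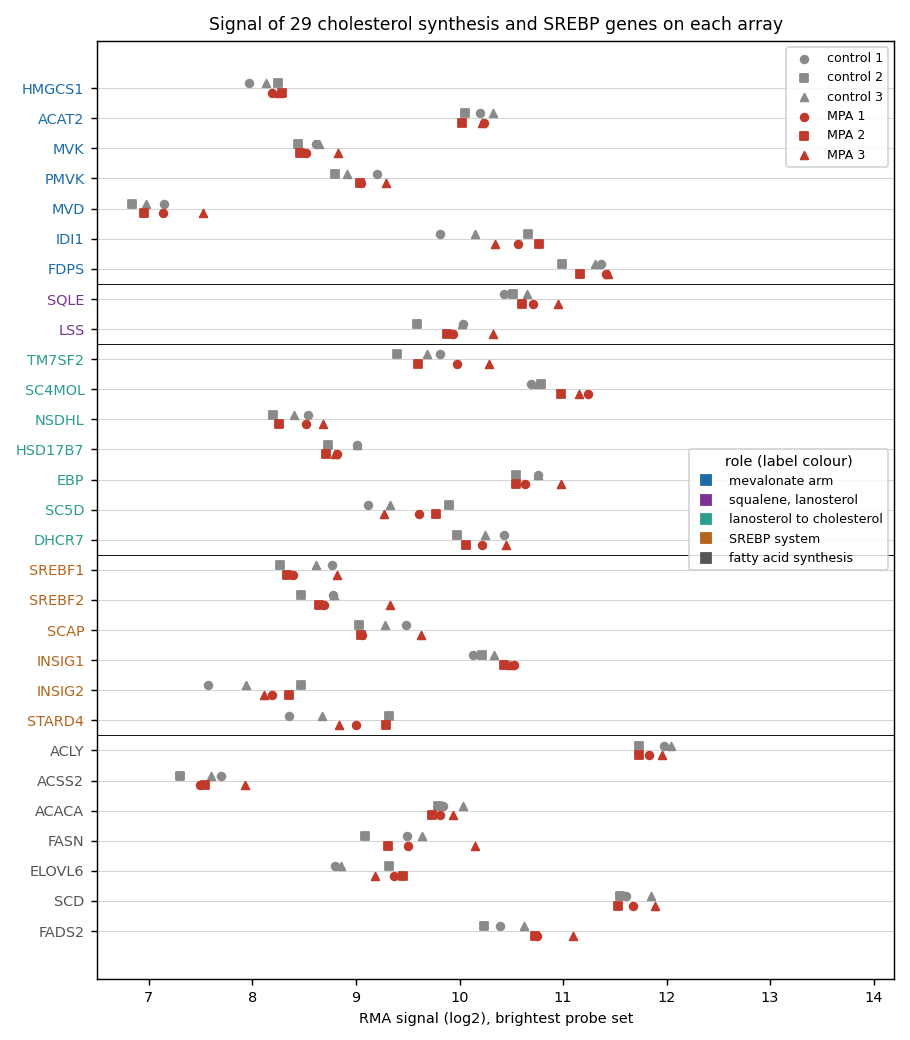
RMA signal (log2) of the 29 members on each control array (grey, upper row of each gene) and each MPA array (red, lower row), with the marker shape giving the array number; levels of different genes are not comparable. Only SC4MOL, INSIG1 and FADS2 show all MPA arrays to the right of all control arrays.

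Among the genes of the SREBP system itself, neither transcription factor gene was called. SREBF1 was at 8.77, 8.27 and 8.61 in control cells and 8.39, 8.33 and 8.82 with MPA, and its mean difference was -0.035 (95% interval -0.43 to 0.36). SREBF2 was at 8.78, 8.47 and 8.79 in control cells and 8.69, 8.64 and 9.33 with MPA. Only array MPA 3 exceeded the SREBF2 controls, and the difference of 0.21 became -0.015 without it. Its other probe sets gave -0.095 and -0.15. The escort gene SCAP had group means of 9.27 ± 0.23 and 9.25 ± 0.33 (SD, n = 3).
INSIG1, whose product retains SCAP and is itself a classical SREBP target, was at 10.13, 10.22 and 10.33 in control cells and 10.53, 10.43 and 10.49 with MPA. The groups did not overlap, and the estimate was 1.19-fold (log2 0.25, 95% interval 0.020 to 0.49, limma adjusted p = 0.427), below the fold minimum of a call. A dimmer INSIG1 probe set also had all MPA arrays above the controls (0.37, limma adjusted p = 0.371), and the remaining one overlapped (0.16). The paralog INSIG2 differed by 0.22 over controls that spanned 0.89, and its interval ran from -0.25 to 0.70. STARD4, a carrier of sterols between membranes, had controls at 8.35, 9.32 and 8.67 and MPA arrays at 9.0, 9.29 and 8.84, with a spread of 0.97 among controls against a difference of 0.26.

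Of the fatty acid genes, which respond mainly to SREBP-1, 7 of 8 were measured and FADS2 had the highest estimate of all members. FADS2, a desaturase of polyunsaturated fatty acids, was at 10.39, 10.24 and 10.62 in control cells and 10.75, 10.73 and 11.10 with MPA. Every MPA array was above every control, and the estimate was 1.36-fold (log2 0.44, 95% interval 0.11 to 0.77, limma adjusted p = 0.274). Its dimmer probe set overlapped between groups (0.24). Across the settings tried, the adjusted p of FADS2 from limma ranged from 0.0651 to 0.634.
ELOVL6, the elongase that extends palmitate, was at 8.80, 9.32 and 8.86 in control cells and 9.37, 9.45 and 9.18 with MPA. Control 2 lay above MPA 3 (difference 0.34, limma adjusted p = 0.521), and of its 2 dimmer probe sets 1 overlapped (0.33, adjusted p = 0.684) and the other did not (0.54, adjusted p = 0.297). FASN, the fatty acid synthase, was at 9.49, 9.09 and 9.64 and then 9.50, 9.31 and 10.15. Only MPA 3 exceeded the FASN controls, and without it the difference of 0.25 was -1e-05. ACLY and ACSS2, which supply acetyl-CoA from citrate and acetate, differed by -0.073 and 0.12, the carboxylase ACACA by -0.061 and the stearoyl-CoA desaturase SCD by 0.025, with overlap in each.

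In the whole set of 62 probe sets for the 29 genes, none was called. Of the 33 beside the brightest, 5 were dimmer than the array medians in both groups and 20 had a positive log2 fold change. All MPA arrays were above all controls for 2 of the 33 and below them for 0, against 7.94% and 7.43% of all probe sets. Probe sets of the same gene differed in sign for 9 of the 18 members that had more than 1. HMGCS1 was among them, with 0.13 for the brightest and -0.24 for the other probe set.

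For most members the arrays of a group differed by more than the group means, and the members fell on different sides of this variation. Array control 2 was the lowest of the controls for 20 members (69%) and the highest for 7 (24.1%), and MPA 2 was the lowest of the MPA arrays for 22 and the highest for 6. Both arrays were the lowest of their group for 19 members, among them FASN, LSS, SREBF1, DHCR7 and TM7SF2, which was 65.5% of members and 30.1% of the 14212 probe sets at least as bright as the dimmest member. Both were the highest for 6 members: HMGCS1, IDI1, SC5D, INSIG2, STARD4 and ELOVL6 (20.7%, and 25.2% of those probe sets). STARD4, for example, was 0.54 above its group mean on control 2 and 0.25 above on MPA 2, while FASN was 0.31 and 0.34 below.
Array MPA 3, which had low poly-A and 18S signals, was the highest of its group for 19 members and was 0.50 above the group mean for FASN and 0.44 for SREBF2. Of the probe sets at least as bright as the dimmest member, MPA 3 was the highest of its group for 50.1% (65.5% of members). Control 2 was the lowest of its group for 52.6% of them and MPA 2 for 36.2% (69% and 75.9% of members). Control 2 was the highest for 35.3% and MPA 2 for 31.8% (24.1% and 20.7% of members). Whether the split follows the pathway or the arrays was not tested.

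**Figure D4:**
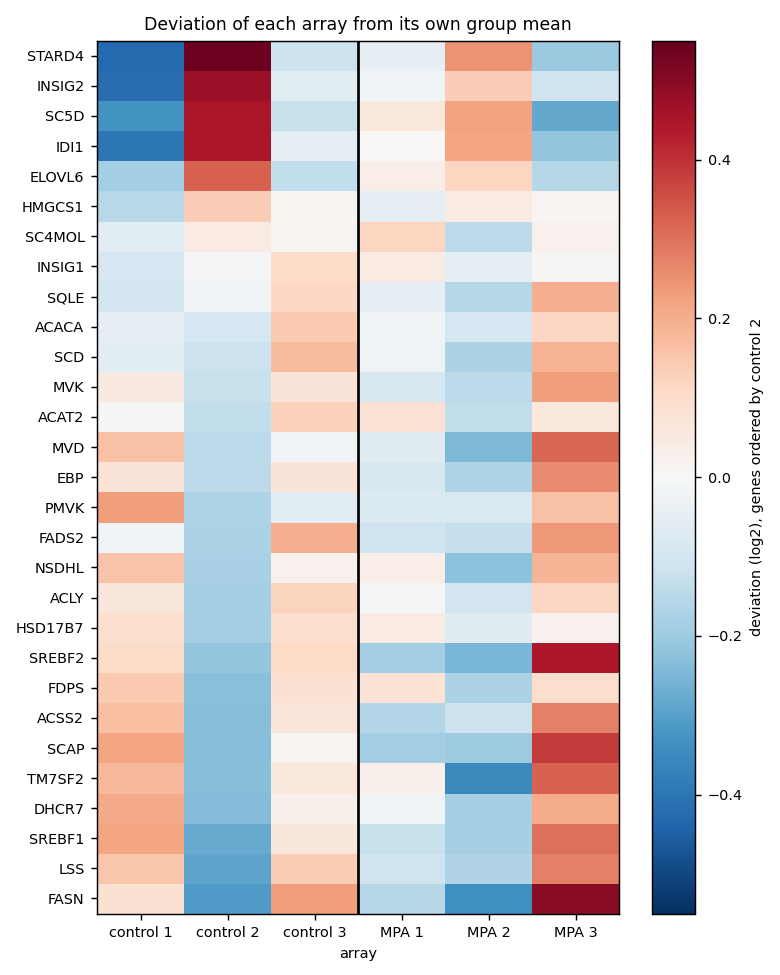
Deviation of the log2 signal on each array (columns) from the mean of its own group for the 29 members (rows, ordered by control 2); red is above and blue below the group mean. STARD4, INSIG2, SC5D, IDI1 and ELOVL6 are high on control 2 and MPA 2, where most other members are low.

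The lists of neighbouring pathways held 3 genes that were called, all higher with MPA. Lysosomal acid lipase (LIPA), which frees cholesterol and fatty acids from lipoprotein lipids, was at 10.23, 10.38 and 10.52 in control cells and 11.19, 11.11 and 11.19 with MPA, a 1.73-fold change (limma adjusted p = 0.00865). The lipoprotein receptor gene VLDLR was at 7.32, 7.13 and 7.34 and then 8.10, 7.96 and 8.31, a 1.81-fold change (limma adjusted p = 0.0104). LPIN1, a phosphatidate phosphatase of glycerolipid synthesis, was at 9.11, 9.38 and 9.26 and then 10.15, 10.13 and 9.87, a 1.74-fold change (limma adjusted p = 0.0139). All MPA arrays of these 3 genes were above all of their controls. LIPA lost its call without MPA 1 (adjusted p = 0.0611) and with its probe sets averaged (0.41, adjusted p = 0.0896), VLDLR without control 3 or MPA 1 (0.0541 and 0.0604), and LPIN1 without control 1, control 3, MPA 1 or MPA 2 (0.0583 to 0.0890).
By list, sterol transport and efflux had 2 of 16 higher and 0 lower, other lipogenic genes 1 of 16 and 0, the non-sterol isoprenoid branch 0 of 12 in either direction, and SREBP cleavage and sterol-regulated degradation 0 of 8. Over all 19775 genes, 1.74% were called higher and 1.16% lower. Another 4 genes of sterol synthesis and uptake were not analysed here. Of the genes not called, MYLIP, a ubiquitin ligase of lipoprotein receptors, had the largest difference of its list (-0.51, limma adjusted p = 0.112), and SAM called it lower. SCD5, a paralog of SCD, was at 0.41 (adjusted p = 0.181; called higher by SAM), MBTPS2, a protease that releases SREBPs, at 0.36 (adjusted p = 0.504) and PDSS1, which makes the tail of coenzyme Q, at -0.33 (adjusted p = 0.318). The efflux transporter ABCA1, a target of the oxysterol receptors, was dimmer than the array medians, at means of 3.54 and 3.59.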

How the data were processed

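Total RNA of IKPRAB-36 cells was hybridised to Affymetrix U133 Plus 2.0 arrays, 3 without and 3 with 1 nM MPA for 48 h. The deposited values are log2 RMA signals, background corrected, quantile normalized and summarised per probe set by the authors; no software version was given in the sources used here. Of 54675 probe sets, 62 Affymetrix controls were left out and 54613 tested. Gene names came from the platform annotation, updated through Entrez identifiers: 41091 probe sets had 1 symbol, 1801 several and 11721 none. Among the probe sets with 1 symbol, the brightest stood for its gene.

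Groups were compared with limma 3.58.1 in R 4.3.3 (lmFit and eBayes, two-sided) and Benjamini-Hochberg adjustment over all probe sets tested. Calls required an adjusted p under 0.05 and a difference of at least 25% on the linear scale, the minimum in the study's methods. The steps were tested on simulated data. Named were all members, the called genes of each related list, its largest difference that was not called, and cell type markers. The progestin-responsive genes, FKBP5 among them, were named as a check of the treatment, and ABCA1 was named outside this rule. SC4MOL, INSIG1 and FADS2 were singled out after their values were seen. The members and lists were chosen with earlier results of these data known. Alternatives were SAM (a version written from its description), a replicate block, an intensity trend and the removal of dim probe sets. Others were array scaling on 8 housekeeping genes, renewed quantile normalization, averaged probe sets, no fold minimum and leaving out each array. The calls of this SAM version may differ from those of the original program. Arrays give no read depth, and 3 per group limit the precision.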

Additional observations from a re-analysis of the deposited data

How the results depend on the processing

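The count of 0 members called higher and 0 lower was found under all alternatives except SAM, which called 1 higher (SC4MOL). Across the array, limma called 663 probe sets higher and 444 lower. SAM called 1313 and 868, the replicate block 1208 and 825, and leaving out each array in turn gave 353 to 725 higher and 156 to 465 lower. No member was called under the block. The labels do not say whether equal replicate numbers pair the arrays. The deviations of same-numbered arrays 1, 2 and 3 from their group means correlated at -0.017, 0.523 and 0.326 over all probe sets, and at -0.334, 0.914 and 0.645 over the 29 members. Over all probe sets, control 1 correlated best with MPA 3 (0.352), whereas control 2 did so with MPA 2 (0.523) and control 3 with MPA 3 (0.326). The main fit did not assume pairing. The members' median log2 fold change ranged from 0.028 to 0.197 when an array was left out, and was 0.097 with housekeeping scaling, which moved all probe sets by -0.031. Directions of several members were not stable. Most of these were near 0 in the main fit, but FASN (0.25), SREBF2 (0.21) and HMGCS1 (0.13) were among them. With the probe sets of each gene averaged, the difference was -0.058 for HMGCS1, -0.066 for EBP, 0.033 for SREBF1, -0.014 for SREBF2 and 0.0062 for ACACA. With housekeeping scaling it was -0.0092 for DHCR7 and -0.0062 for SCD, and with a second quantile normalization -0.018 for EBP and -0.015 for DHCR7. Leaving out an array gave -0.098 to 0.037 for ACAT2, -0.074 to 0.11 for MVK, -0.0022 to 0.20 for FDPS, -0.097 to 0.12 for EBP, -0.066 to 0.32 for SC5D, -0.097 to 0.13 for DHCR7, -0.19 to 0.073 for SREBF1, -0.015 to 0.33 for SREBF2, -0.21 to 0.091 for SCAP, -0.021 to 0.20 for ACSS2, -0.12 to 0.0098 for ACACA, -1e-05 to 0.42 for FASN and -0.070 to 0.11 for SCD. The cause was not tested.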
